A study of Oryza sativa with 32 samples.

Results

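Secretory peroxidase precursors are the plant class III peroxidases, heme enzymes made with a signal peptide and sent to the cell wall or the vacuole. They oxidize phenolic compounds with hydrogen peroxide, which joins monolignols into lignin and cross-links wall polymers, and they can also release reactive oxygen species. In roots they are known for their part in wall stiffening and lignin deposition, and the family is known to be large in grasses. The members described here were chosen from the MSUv.7 rice annotation by their product description, as loci not marked as a transposable element (TE) whose representative gene model carries the words peroxidase precursor. The list held 140 such loci of 55986, or 3.59 per 1000 of the loci not marked as TEs. Of these, 139 shared the description putative peroxidase precursor. The exception, LOC_Os01g18900, was described as a stigma specific peroxidase precursor.

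The annotation came with 32 RNA-seq libraries from rice roots, 4 biological replicates for each of 8 groups. Azucena (tropical japonica), IR64 (indica) and 2 near-isogenic lines, AZU[IR64121] and IR64[AZU12.1], were grown in hydroponics and sampled under control conditions or after 4 h at 80 μM Al3+ activity. Each near-isogenic line carries the Alt12.1 region of chromosome 12 from the other parent, and this region holds ART1, a zinc finger transcription factor of Al resistance. The values analysed here are positions of gene models and marks in the annotation, so no value below belongs to a library, to a genotype or to the Al treatment. The list is complete for the Nipponbare reference, and its loci are not replicates. Differences between sets of loci are therefore given as counts, shares and medians with no test.

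Peroxidase precursor loci were present on all 12 chromosomes, and 0 lay on unplaced sequence. Chromosome 1 held the most, 24 loci, followed by chromosome 7 with 22, chromosome 3 with 19 and chromosome 6 with 18. These 4 chromosomes together held 83 of the 140 loci (59.3%), against 40.3% of all non-TE loci. Chromosome 4 had 14 members, chromosome 5 had 11 and chromosome 2 had 9. The remaining chromosomes had few, with 6 on chromosome 10, 5 on chromosome 12, and 4 each on chromosomes 8, 9 and 11. Counted per 1000 non-TE loci, chromosome 7 was the richest with 7.19, then chromosome 6 with 5.57 and chromosome 1 with 4.73. Chromosome 8 was the poorest with 1.45, and chromosome 11 was close to it with 1.48. Chromosome 2, in spite of its 4134 non-TE loci, had 2.18 members per 1000.

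**Figure D1:**
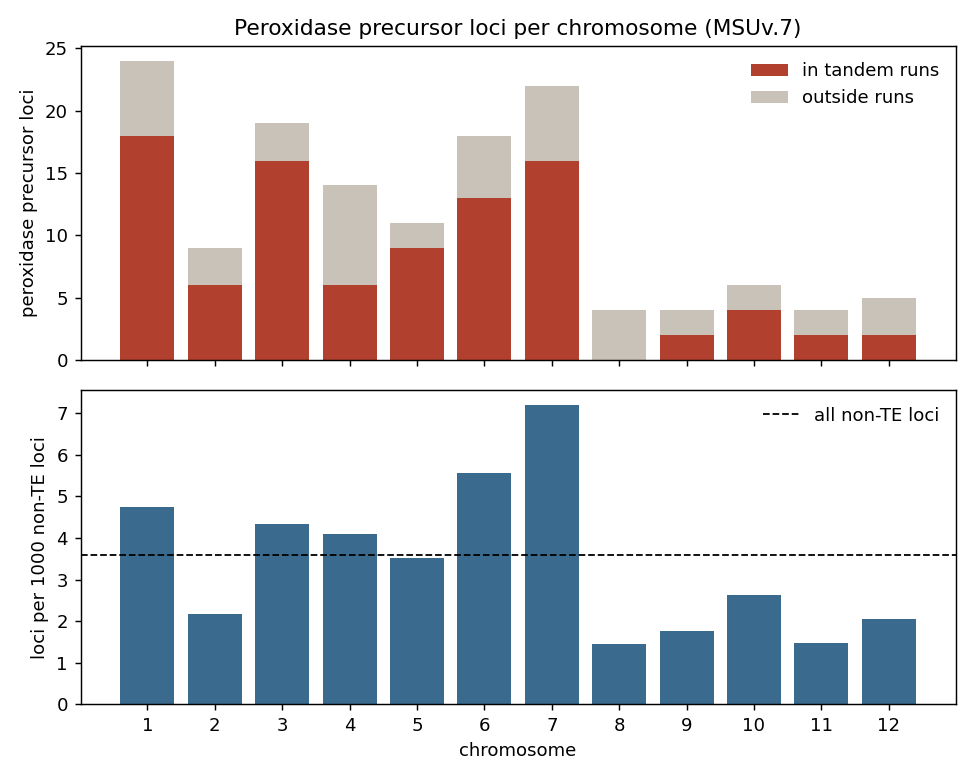
The upper panel shows the number of peroxidase precursor loci on each chromosome, split into loci in tandem runs and loci outside runs, and the lower panel the number per 1000 non-TE loci with a dashed line at the value over all non-TE loci. Chromosome 7 has 22 members and the highest value per 1000 loci, 7.19, while none of the 4 members on chromosome 8 is in a run.

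Members were then ordered along each chromosome among all annotated loci, and a tandem run was drawn wherever the next member lay within 5 loci. By this definition 94 of the 140 members (67.1%) stood in 28 runs, and 46 stood outside runs. The runs comprised 13 of 2 members, 7 of 3, 2 of 4, 1 of 5, 1 of 6 and 4 of 7. The 15 runs with at least 3 members held 68 loci (48.6%), and the 4 largest held 28 loci (20.0%). Most neighbours were close. Of the 66 consecutive pairs inside runs, 39 were adjacent loci and 17 had a single locus between them. The 2 pairs at the limit of 5 loci were LOC_Os01g18970 with LOC_Os01g19020 and LOC_Os04g59210 with LOC_Os04g59260. Just outside the limit, LOC_Os01g22249 and LOC_Os01g22336 were 6 loci apart, LOC_Os07g44460 and LOC_Os07g44550 were 7 apart, and the runs that end at LOC_Os06g32990 and begin at LOC_Os06g33080 were 9 apart.

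The densest of the largest runs lay on chromosome 7, from 28660188 to 28692640, with 7 members among 8 loci in 32.5 kb. The first 6, LOC_Os07g47990, LOC_Os07g48010, LOC_Os07g48020, LOC_Os07g48030, LOC_Os07g48040 and LOC_Os07g48050, lay in the plus direction and LOC_Os07g48060 in the opposite direction. The single locus among them that is not a peroxidase was the retrotransposon LOC_Os07g48000. Lengths were close to each other, from 1680 bp in LOC_Os07g48020 to 2033 bp in LOC_Os07g48060, so that the longest was 1.21 times the shortest. LOC_Os07g48050 and LOC_Os07g48060 pointed towards each other with 234 bp between their ends, the smallest gap between members of any run.

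On chromosome 5, the run from 2010115 to 2082760 had 7 members, all on the plus strand, in 72.6 kb, which was the longest span of any run. Its first locus, LOC_Os05g04380, was 4974 bp long with 2 gene models. The others, LOC_Os05g04410, LOC_Os05g04440, LOC_Os05g04450, LOC_Os05g04470, LOC_Os05g04490 and LOC_Os05g04500, measured 1461 to 2422 bp. Among the 6 loci between them, 4 were marked as TEs, 1 was an expressed protein and 1 was OsWAK56 (LOC_Os05g04460), a wall-associated receptor-like kinase.

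The run on chromosome 1 from 10679488 to 10750234 had all its 7 members on the minus strand. Relative to the shortest member its lengths varied more than in any other run, with a ratio of 9.09 between the longest and the shortest. LOC_Os01g18890 was 2701 bp long and its neighbour LOC_Os01g18900, the stigma specific member, only 297 bp, the shortest locus of the family. LOC_Os01g18910, LOC_Os01g18930, LOC_Os01g18950 and LOC_Os01g18970 measured 1097 to 1505 bp. A block of 4 TE loci in a gap of 26979 bp, the largest gap within any run, set off the last member, LOC_Os01g19020. The first locus of the run shared 341 bp with LOC_Os01g18880, a ubiquitin carboxyl-terminal hydrolase on the opposite strand.

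The run of 7 on chromosome 3, from 14436110 to 14505973, began with LOC_Os03g25280 in the minus direction and went on with 6 members in the opposite direction, LOC_Os03g25300, LOC_Os03g25320, LOC_Os03g25330, LOC_Os03g25340, LOC_Os03g25360 and LOC_Os03g25370. The members were 1136 to 1891 bp long and evenly spread, with 7834 to 13202 bp between neighbours. The 6 loci between them included 1 marked as a TE, an auxin responsive protein, a myb-like protein, a lipid transfer protein precursor (LTPL36) and 2 expressed proteins.

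**Figure D2:**
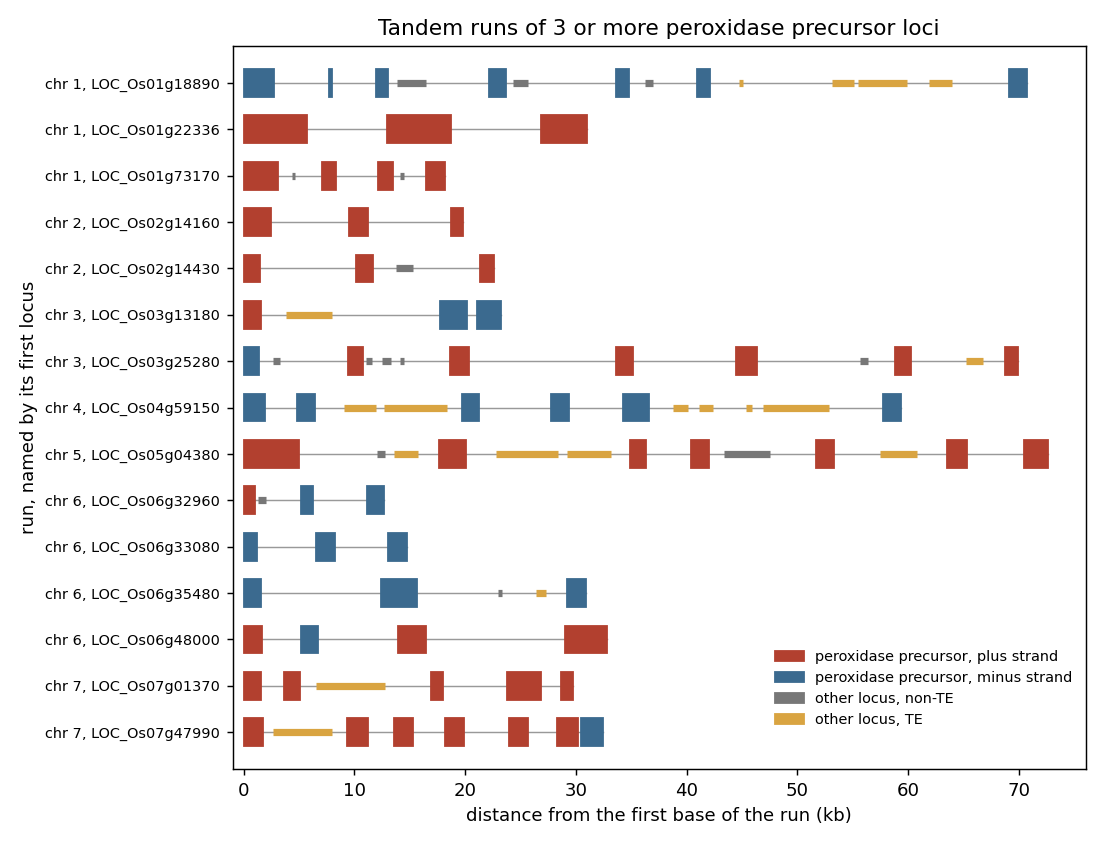
Each row is a tandem run of 3 or more peroxidase precursor loci, drawn to scale from the first base of the run in kb, with members coloured by strand and the other loci between them as thin bars. The run of chromosome 7 that begins with LOC_Os07g47990 packs 7 members into 32.5 kb, while those of chromosomes 1, 3 and 5 spread the same number over 69.9 to 72.6 kb.

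The runs of 6 and 5 members were each on a single strand. On chromosome 4, LOC_Os04g59150 to LOC_Os04g59260 formed a run of 6 on the minus strand over 59.4 kb, and all 6 loci between its members were marked as TEs. On chromosome 7, LOC_Os07g01370 to LOC_Os07g01420 formed a run of 5 on the plus strand over 29.7 kb, which began at position 235903. The runs of 4 were LOC_Os01g73170 to LOC_Os01g73220, all on the plus strand, and LOC_Os06g48000 to LOC_Os06g48030, where LOC_Os06g48010 alone ran in the minus direction. The latter had no other locus between its members. Chromosome 6 had 3 runs of 3 members, which began with LOC_Os06g32960, LOC_Os06g33080 and LOC_Os06g35480. The first of these had members on both strands, and the others lay wholly on the minus strand. Chromosome 2 had 2 runs of 3, LOC_Os02g14160 to LOC_Os02g14180 and LOC_Os02g14430 to LOC_Os02g14460, all on the plus strand and 23 loci apart. Chromosome 1 had a run of 3 long loci, LOC_Os01g22336, LOC_Os01g22352 and LOC_Os01g22370, of 4113 to 5750 bp. It followed the pair LOC_Os01g22230 and LOC_Os01g22249, of 4293 and 9664 bp. The run of 3 on chromosome 3, LOC_Os03g13180 to LOC_Os03g13210, also had members on both strands.

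The runs of 2 members were spread over chromosomes 1, 3, 5, 7, 9, 10, 11 and 12. On chromosomes 11 and 12 they lay near the start of the chromosome, where rice is known to carry a duplicated segment. LOC_Os11g02100 (1754 bp) and LOC_Os11g02130 (2525 bp) were both on the plus strand with 10062 bp between them. LOC_Os12g02060 (1530 bp) and LOC_Os12g02080 (2565 bp) were also both on the plus strand, with 7703 bp between them. In each pair the second locus was the longer, as it was in most runs of 2. Whether the pairs of chromosomes 11 and 12 correspond to each other was not tested, because no sequence was used. An expressed protein lay between the members on both chromosomes, and on chromosome 11 a CACTA transposon lay there as well.

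Neighbouring members mostly pointed the same way. Of the 66 consecutive pairs in runs, 57 (86.4%) were on the same strand, 6 were convergent and 3 were divergent. Of 38245 other pairs of consecutive non-TE loci within the same distance, 51.8% were on the same strand. Among adjacent loci the values were 33 of 39 pairs (84.6%) for the members and 51.4% for the others. All members shared a strand in 20 of the 28 runs. Among the 15 runs of 3 or more, 10 had a single strand, and 47 of their 53 pairs agreed. Over the whole family, 83 members were transcribed in the plus direction and 57 in the minus direction, and chromosome 7 had 19 and 3. Since most neighbours in runs shared a strand, these loci are not independent in direction.

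The members of runs were further apart than ordinary neighbours. Adjacent members had a median of 4819 bp between their ends, against 2400 bp for other adjacent non-TE loci. Wider spacing was also found outside runs. The median gap to the nearest locus of any kind was 1936.5 bp for members in runs and 1878 bp for members outside runs. For other non-TE loci it was 1365 bp. The 44 loci between members of runs included 21 marked as TEs (47.7%), while 30.3% of all loci in the annotation carry that mark. Most of the 21 lay in 3 runs, with 6 in the run of 6 on chromosome 4 and 4 each in the runs of 7 on chromosomes 1 and 5. Another 14 of the 44 loci were expressed or hypothetical proteins with no further description, and 9 had another description. In 12 of the 28 runs there was no locus between the members. Taken over the 5 loci on either side of each locus, the mean share of TE loci was 24.2% for the members and 22.7% for other non-TE loci. It was 24.0% for members in runs and 24.6% for those outside runs. No TE locus was found in this window for 24 members (17.1%), against 22.3% of the others.

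The same counts were made for other families known to be arranged in tandem. Cytochrome P450 loci, which encode heme monooxygenases, numbered 350 on 12 chromosomes, with 57.1% in runs and a largest run of 14. Glutathione S-transferase loci, whose products conjugate glutathione to electrophiles, numbered 82, with 57.3% in runs and a largest run of 18. At this window the peroxidase precursors had 67.1% in runs and a largest run of 7. At the narrowest window, adjacent loci only, the shares were 46.4% for the peroxidases, 45.1% for the glutathione S-transferases and 39.4% for the cytochrome P450s. At 20 loci the peroxidases had 69.3%, the cytochrome P450s 67.4% and the glutathione S-transferases 59.8%. Comparing only these end windows, the peroxidases were closer to the cytochrome P450s at the widest and further from the glutathione S-transferases. The course between them was not steady. At 2 loci the peroxidases had 59.3%, the cytochrome P450s 45.4% and the glutathione S-transferases 51.2%. For pairs on the same strand the cytochrome P450s had 85.8% and the glutathione S-transferases 79.5%. All 1901 other loci described as precursors, which belong to many families, had 51.4% in runs when treated as a single list and 72.6% of pairs on the same strand. A pair in that list can join loci of different families. A longer list places more of its members within a given window by number alone, and the shares in runs were not adjusted for list length.

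**Figure D3:**
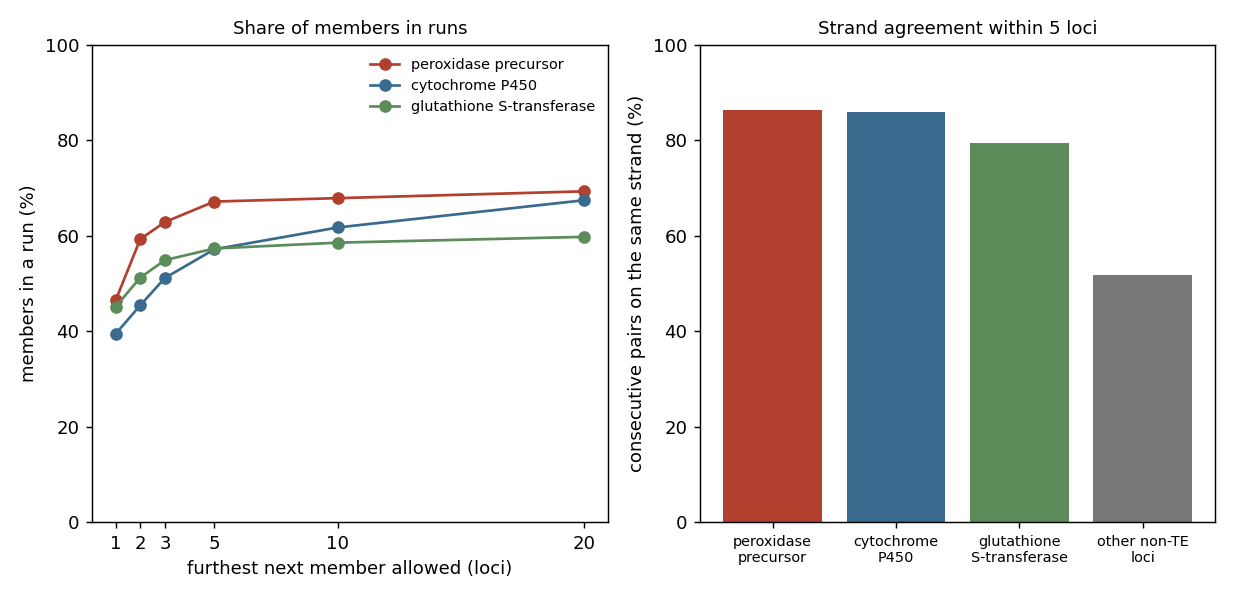
The left panel shows the percentage of members in a run as the furthest next member allowed goes from 1 to 20 loci for 3 families, and the right panel the percentage of consecutive pairs within 5 loci that are on the same strand. For the peroxidase precursors the share rises from 46.4% to 67.1% between 1 and 5 loci and changes little beyond, and all 3 families exceed the 51.8% of other non-TE loci for strand.

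Peroxidase precursor loci were short and of similar length. A locus was measured from the first to the last base of its gene models, introns included. The median was 1758 bp with quartiles of 1476 and 2499 bp, against a median of 2189 bp and quartiles of 977 and 3957 bp for other non-TE loci. Between 1 and 2 kb lay 80 members (57.1%), compared with 21.3% of the other loci. Glutathione S-transferase loci had a larger share in this range, 61.0%, and a shorter median of 1260 bp, while cytochrome P450 loci had 35.7% and a median of 2190.5 bp. Only 3 members (2.14%) were under 1 kb, against 25.6%, and 15 (10.7%) were over 4 kb, against 24.5%. Loci in runs had a median of 1686 bp and those outside runs of 2156 bp, and the share from 1 to 2 kb was 66.0% and 39.1%, respectively. Consecutive members of a run had a median ratio of 1.32 between the longer and the shorter, compared with 2.25 for other consecutive non-TE loci. Among the members this ratio was at most 1.5 in 46 of the 66 pairs and above 2 in 10. The other loci have a wider range of lengths, which by itself gives larger ratios. Members that are not neighbours were not paired, so likeness of neighbours beyond the narrow range of the family was not tested.

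The longest member was LOC_Os06g46799 on the plus strand of chromosome 6, from 28414030 to 28425514, with 11485 bp and 1 gene model. It stood outside runs. LOC_Os01g22249 followed with 9664 bp, LOC_Os12g34524 with 9655 bp and LOC_Os03g32050 with 7293 bp. At the other end, LOC_Os10g01760 had 534 bp and LOC_Os12g09460 had 857 bp. Whether the short loci encode whole enzymes was not tested, since the list gives neither exons nor coding sequences.

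**Figure D4:**
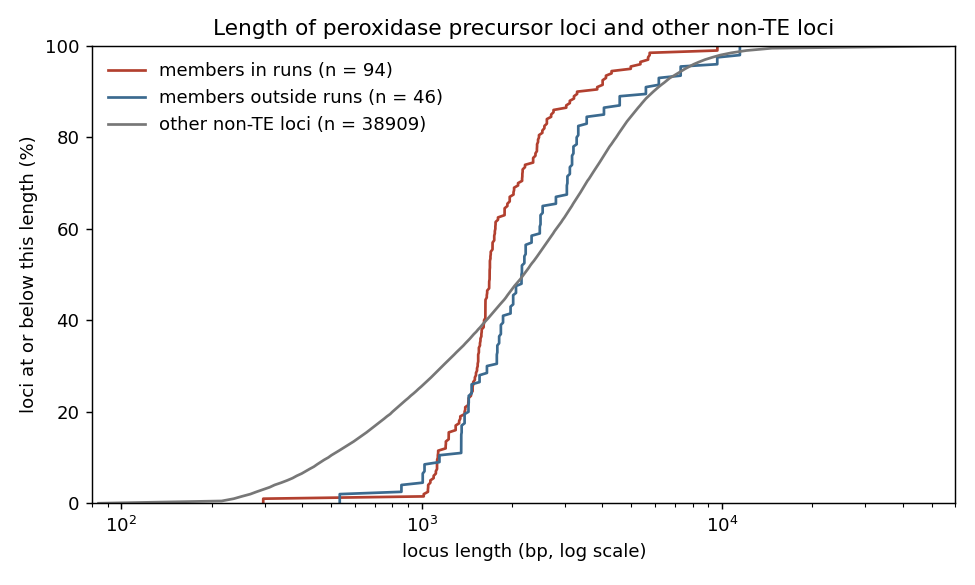
The curves show the percentage of loci at or below a given length in bp, on a log scale, for peroxidase precursor loci in runs (94 loci), outside runs (46 loci) and for 38909 other non-TE loci. The members in runs rise steeply between 1 and 2 kb, where 66.0% of them lie, while the other loci spread over a wider range.

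Few members had alternative gene models. A second model was annotated for 14 of 140 loci (10.0%), against 16.0% of other non-TE loci, and the family had 158 models in all. The share was also below 16.0% for cytochrome P450 loci (8.57%) and glutathione S-transferase loci (13.4%). Most of the 14 peroxidase precursor loci stood in runs. They were 13 of the 94 members in runs (13.8%) and 1 of the 46 outside (2.17%). LOC_Os03g22010 had 4 models, LOC_Os02g58720 and LOC_Os07g34710 had 3, and the other 11 had 2. LOC_Os03g22010, 5356 bp long, faced LOC_Os03g22020 with 821 bp between them, so this pair was convergent. LOC_Os02g58720 was the member outside runs. In the run of 7 on chromosome 7 the first and the last locus had 2 models each.

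All 140 members carried the mark of an expressed locus, as did 93.5% of other non-TE loci. This mark belongs to the annotation and gives no level in these roots. It was set for exactly those gene models whose description contains the word expressed, 59708 in all. The 2529 other non-TE loci without the mark were mostly hypothetical proteins (2333), and without these 99.5% of the other loci were marked. None of these hypothetical proteins carried the mark, so leaving them out raises the share through their wording alone. The loci that remain include those described only as an expressed protein, which carry the mark by that wording. The closeness of the members' value to this share therefore says nothing about their expression.

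Overlap with other loci was rare. It was found for 4 members (2.86%), against 4.08% of other non-TE loci. In 3 of these the other locus was on the opposite strand. LOC_Os05g42000 shared 1216 bp with LOC_Os05g42010, a TraB family protein, LOC_Os04g51300 shared 958 bp with LOC_Os04g51310, and LOC_Os01g18890 is described above. LOC_Os12g09460 shared 550 bp with LOC_Os12g09455, an expressed protein on the same strand.

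The near-isogenic lines differ from their recurrent parents on chromosome 12, where 5 members lay. LOC_Os12g08920 (1560 bp) and LOC_Os12g09460 (857 bp), both on the minus strand, fell inside the IR64 segment of AZU[IR64121], among 424 non-TE loci. No member fell inside the Azucena segment of IR64[AZU12.1], which overlapped 313 non-TE loci. Per 1000 non-TE loci this was 4.72 in the segment of AZU[IR64121] and 0 in that of IR64[AZU12.1], against 3.59 over the whole annotation. With counts this small, the segments cannot be said to differ in their share of members. The member nearest to ART1 (LOC_Os12g07280) was LOC_Os12g08920, from 4653054 to 4654613, 1.07 Mb away with 157 loci between them. LOC_Os12g09460 was 1.37 Mb from ART1. The pair LOC_Os12g02060 and LOC_Os12g02080 lay 2.95 Mb or more on the other side, and LOC_Os12g34524 was 17.3 Mb away.

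The word peroxidase also occurred in 20 loci outside the definition. Ascorbate peroxidases, which remove hydrogen peroxide inside the cell with ascorbate, accounted for 9, and glutathione peroxidases, which reduce lipid and other peroxides, for 5. They differed from the secretory family in arrangement and size. The ascorbate peroxidases had a median length of 3490 bp and 5 of 9 had more than 1 gene model. OsAPx6 (LOC_Os12g07820) and OsAPx5 (LOC_Os12g07830) were the only pair among them within 5 loci. Of the other 6 loci, LOC_Os04g06860, described as a peroxidase 28 precursor, was left out because the number separates the words. LOC_Os07g44480, LOC_Os07g44499 and LOC_Os07g44600, described only as peroxidases, lay on chromosome 7 within 3 loci of a member. Counted with them, LOC_Os07g44460, LOC_Os07g44550 and LOC_Os07g44590 would form a run of 6 loci, in place of a pair and a lone member.

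Other families of hydrogen peroxide and lignin metabolism had fewer loci when counted by the words of their product descriptions. Loci described in other words were not counted. The annotation held 7 respiratory burst oxidases, which produce the superoxide from which wall hydrogen peroxide is formed, 8 superoxide dismutases, which make that conversion, and 3 catalases, which break hydrogen peroxide down. None of these was in a run. Of 11 peroxiredoxins, thiol peroxidases, 2 were in a run. On the lignin side, 6 of 9 loci for phenylalanine ammonia-lyase, the entry enzyme of the phenylpropanoid pathway, were in runs, as were 2 of 14 for cinnamoyl-CoA reductase, which makes monolignol aldehydes. Laccases, copper oxidases that also polymerize monolignols, had 9 of 18 precursor loci in runs, with at most 3 in a run. Dirigent proteins, which guide the coupling of phenoxy radicals, had 24 of 49 in runs and a median length of 971 bp. No locus was described as cinnamyl alcohol dehydrogenase in these words.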

How the data were processed

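Total RNA from roots was sequenced in 32 libraries. Per the study's methods and the submitters' processing notes, the authors trimmed reads with Trimmomatic, removed ribosomal RNA matches with Bowtie, aligned the rest with HISAT to MSUv.7 and counted reads per gene. The file that the authors deposited and that was used here is the MSUv.7 list of gene models. Its values, start and stop, are positions in bp, and 0 columns hold values of a library, so depth and replicate error do not apply. Reads of similar tandem copies can be hard to place, and this was not tested because no sequence was used.

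Each locus spanned all its gene models, with description and TE mark from the representative model. Loci were ordered by start, TE loci included. Runs joined members at most 5 loci apart, and the run finder was tested on simulated data. None of the comparisons has a test. Segment ends were read from the study's description of the lines. Named loci are those of the largest runs (4 tied for the 3 places), extremes of length, members with 3 or more models, overlapping loci and the member nearest to ART1. Further loci were named once their values had been seen. The members and lists were chosen with earlier results of these data known. Of 39387 RefSeq genes of another assembly, 0 matched the 140 members by identifier, so no sequence is shown. Counting used pandas 2.3.3 and numpy 2.4.6 in Python 3.11.15 and figures matplotlib 3.10.9.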

Additional observations from a re-analysis of the deposited data

How the results depend on the processing

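Of 19 alternative values, 3 could not differ from the value reported, since all members and all models of a locus carry the same expressed mark, and these say nothing about stability. The same holds for the count wholly inside the IR64[AZU12.1] segment, since no member overlapped that segment. Each count of loci stayed within 1.5 times of the reported count under the others. The number of loci stayed at 140 when any gene model or TE loci were admitted and was 160 for any description with the word peroxidase. Loci in runs numbered 65 with the adjacent locus only, 95 within 10 loci, 95 with the order over non-TE loci and 95 within 50 kb. Windows of 2, 3 and 20 loci were chosen after the data were seen and gave 83, 88 and 97. The share of pairs on the same strand was 84.6% to 85.5% under its 3 alternatives. The median length was the same for the span of the representative model. The 2 loci inside the AZU[IR64121] segment were the same when counted only if wholly inside. No paired analysis was possible because no library has values in the list of gene models, and for the same reason no replicate could be left out. The list describes the Nipponbare genome, so copies gained or lost in Azucena or IR64 are not seen.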
